A study of Ovis aries with 8 samples.

Results

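The hypothalamus of 4 late-gestation sheep fetuses that received no estradiol sulphate is described here, 1 array per fetus, as 4 of the 8 hypothalami of the series. The 4 were chosen by their label alone, as the vehicle controls, replicates 1 to 4. The other 4 fetuses received estradiol-3-sulfate, 1 mg per day, through a catheter in a lateral cerebral ventricle. By the labels, controls were twins of the treated fetuses, from 4 twin sets, and the same pump and ventricular catheter delivered saline to them, although the design text and sample descriptions call them untreated. The infusion lasted 7 to 12 days in the design text and 7 to 10 days in the treatment protocol, fetuses were operated on at 120 to 127 days of gestation and hypothalami collected at 130 to 134 days. No genotype, breed or sex is given in the labels used here. With 1 group and 1 array per fetus no groups were compared, and every SD is over these 4 fetuses, so that it holds animal, dissection and array differences together.

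The hypothalamus is the part of the brain that links the nervous system with the pituitary. Its neurons make peptides that are released into the portal blood of the pituitary, into the posterior pituitary or onto other neurons, and that govern growth, reproduction, stress responses, feeding and water balance. In the late-gestation sheep the fetal hypothalamus drives the rise in pituitary and adrenal activity that precedes birth. Its tissue also holds astrocytes, tanycytes that line the third ventricle, oligodendrocytes, microglia and vessels, and it borders on the pars tuberalis of the pituitary.

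Signal is given as log2 of the processed intensity of a probe relative to the 75th percentile of its array, so that 0 is that percentile and 1 unit is a doubling of intensity. A probe was counted as detected where the scanner software flagged it as well above background. Replicates 1 to 4 had 75th percentiles of 1633, 1507, 1319 and 981.5 intensity units and detected 77.4%, 72.4%, 74.6% and 67.8% of the 15008 probes. Replicate 4 was thus the dimmest array, and correlations over probes were 0.988 to 0.989 among replicates 1 to 3 and 0.978 to 0.982 with replicate 4. After scaling, replicate 4 was the lowest of the 4 for 39.6% and the highest for 34.1% of the 757 named genes detected on at least 2 arrays. All arrays lay on 1 slide, and no spot was saturated. Because probes bind with different strength, an order of signals is an order of probes and not of transcript abundance.

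Of the 15008 probes, 10009 (66.7%) were detected in all 4 fetuses, 1844 (12.3%) in 1 to 3 and 3155 (21.0%) in none. A gene name could be given to 1656 probes, which stand for 1007 genes. Each gene was classed by its brightest probe, the one with the highest mean. Of these genes, 668 (66.3%) were detected in all 4 fetuses, 138 (13.7%) in 1 to 3 and 201 (20.0%) in none, and these shares stand as the background for the counts of each gene list given further on. Of the 201 genes, 5 had a dimmer probe that was detected on some array, so that 196 had no detected probe at all, and 2 of the 138 had a dimmer probe that was detected on all 4. Of 362 genes classed as detected in all 4 fetuses that had further probes, 43 had one that was detected on no array. The partial class was spread unevenly over the arrays. Of 50 genes detected in exactly 3 fetuses, 46 lacked replicate 4, the dimmest array, and 4 lacked replicate 2. Of 49 genes detected in a single fetus, 31 were detected in replicate 1, 5 in replicate 2, 12 in replicate 3 and 1 in replicate 4. Replicate 2 thus had fewer such genes than replicate 3, although its 75th percentile was higher.

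**Figure D1:**
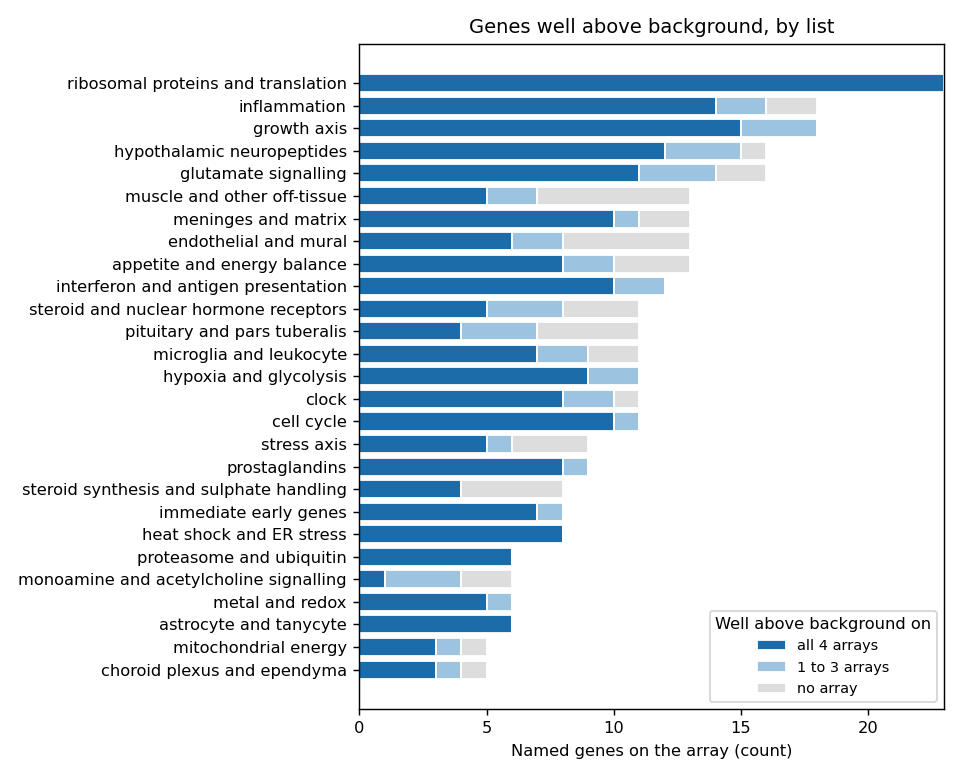
Number of named genes on the array in each gene list (horizontal axis, counts from 0), split by whether they were well above background on all 4, on 1 to 3 or on no vehicle array, for lists with at least 5 genes on the array. All 23 translation genes were detected on all 4 arrays, whereas 4 of 11 pituitary genes were.

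The 20 brightest named genes were mostly those of basic cell function. The brightest was FTH1, the heavy chain of the iron store ferritin, at 7.90, 7.96, 8.15 and 8.31 in replicates 1 to 4, a mean of 8.08 ± 0.18 (SD, n = 4) or 271 times the 75th percentile. Of the 20, 9 encode ribosomal proteins, from RPL6 at 7.36 ± 0.27 to RPL34 at 5.68 ± 0.36. TPT1, the translationally controlled tumour protein, was at 7.07 ± 0.03, and PPIA, the peptidyl-prolyl isomerase cyclophilin A, was at 6.96 ± 0.09. The SDs of the 20 genes ranged from 0.03 to 0.50. Their median, 0.22, was near the 0.24 of all named genes detected in all 4 fetuses.

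Others among the 20 are known from brain tissue. ITM2C, an integral membrane protein that binds the amyloid precursor protein, was at 6.75 ± 0.25 with its brightest probe, but its other probe, which shares no bases with that one, had a mean of -7.43 and was detected on no array, so its level is uncertain. YWHAH, the 14-3-3 protein eta, was at 6.45 ± 0.12. PTGDS, the prostaglandin D synthase made by meninges, choroid plexus and oligodendrocytes, measured 5.69, 6.09, 6.36 and 5.94. TF, the iron carrier transferrin made by oligodendrocytes, measured 5.27, 5.82, 6.32 and 5.27 and had the largest SD of the 20, 0.50. For both, replicate 3 was the highest and replicate 1 was at or near the lowest.

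The last of the 20 was ASIP, the agouti signalling protein that blocks melanocortin receptors, at 5.66 ± 0.22, with SCD5, a fatty acid desaturase, just outside at 5.60. The other ASIP probe had a mean of 3.33, still well above the 75th percentile. Replicate 4 was the highest for 16 of the 20 brightest genes, but this rested on the scaling. The count was 17 with median scaling, 14 with normexp and 6 with quantile normalization, which forces the arrays to one distribution.

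**Figure D2:**
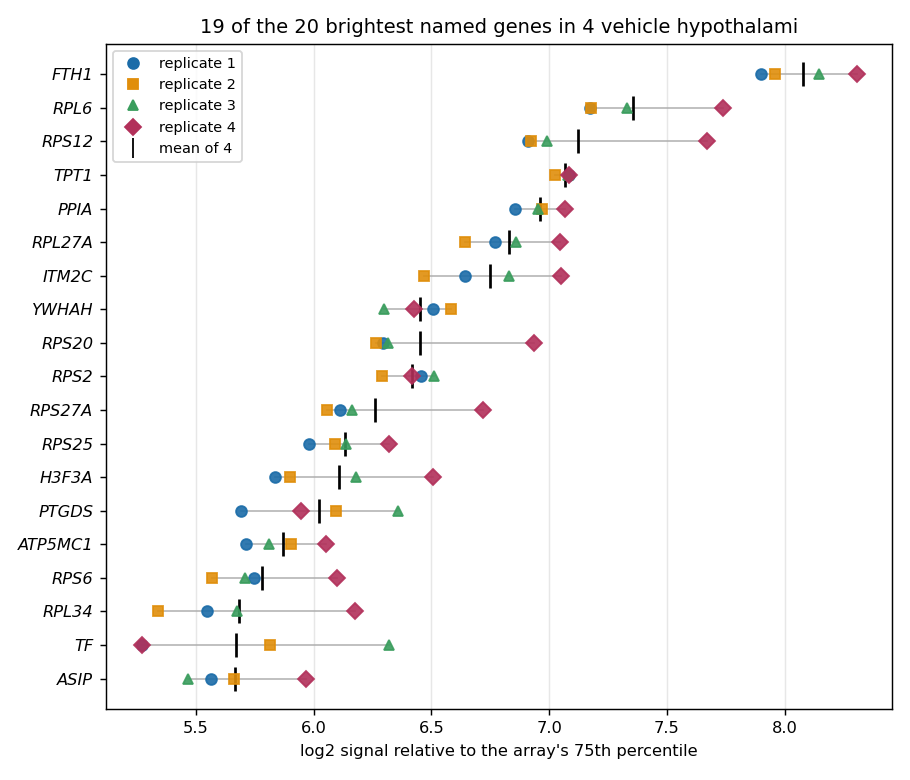
Signal of 19 of the 20 brightest named genes (rows) in each of the 4 vehicle fetuses (symbols), on a log2 scale relative to the array's 75th percentile, with the mean as a black tick. FTH1 stands highest at a mean of 8.08, and TF has the widest spread with an SD of 0.50.

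The neuropeptide list held 37 genes, 16 of them named on the array; the others, among them AVP, CRH, TRH and HCRT, were not analysed here. Of the 16, 12 were detected in all 4 fetuses (75%, against 66.3% of all named genes), 3 in some and PENK, the enkephalin precursor measured by 1 probe, in none. All 5 genes used to check the tissue (OXT, SST, POMC, NPY and TAC1) were among the 12. SST, OXT, ADCYAP1 and TAC1 had the brightest probes.

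SST encodes somatostatin, which restrains growth hormone release, and measured 4.03, 3.52, 3.65 and 4.10 in replicates 1 to 4, a mean of 3.83 ± 0.28 (SD, n = 4). OXT encodes oxytocin, made by magnocellular neurons, and measured 3.82, 3.09, 3.89 and 3.09, a mean of 3.47 ± 0.44. For OXT, replicates 1 and 3 stood above the other pair. TAC1, the precursor of substance P and neurokinin A, was the steadiest of the list at 2.25, 2.14, 2.23 and 2.43, an SD of 0.12. ADCYAP1, the precursor of the peptide PACAP, measured 3.81, 2.35, 2.26 and 4.07, so that replicates 1 and 4 were more than 1 log2 unit above the others, and its second probe, which shares 20 bases with the first, gave 3.42, 2.18, 2.01 and 3.72.

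The arcuate nucleus holds separate neurons that stimulate and restrain feeding. POMC, the precursor of alpha-MSH, ACTH and beta-endorphin, measured 1.13, -0.16, -0.51 and 0.73, a mean of 0.30 ± 0.76. NPY, a peptide that stimulates feeding, measured 0.62, -0.83, -0.77 and 0.33, a mean of -0.16 ± 0.75. AGRP, made by the same neurons as NPY and an antagonist of melanocortin receptors, was detected only in replicates 1 and 4, at -0.56 and -3.57, and gave -5.31 and -5.67 in replicates 2 and 3 without detection. All 3 were thus highest in replicate 1, next in replicate 4 and lower in the other pair.

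Peptides that act on the pituitary, or on the neurons that do, were also mostly higher in replicates 1 and 4. GHRH, the releasing hormone for growth hormone, was detected in replicates 1 and 4 at -2.77 and -3.12. GNRH1, the releasing hormone for gonadotrophins, was detected in replicates 1, 3 and 4 at -2.87, -4.57 and -1.50. NPVF, the precursor of the gonadotrophin-inhibitory peptide, measured 0.65, -0.63, -1.52 and 0.10. TAC3, which encodes neurokinin B of the neurons that drive GnRH release, measured -2.69, -4.28, -2.55 and -2.06, so that replicate 2 alone was low.

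Of the remaining peptides, GAL, the galanin precursor, measured -1.30, -1.48, -2.04 and -0.50. PMCH, the melanin-concentrating hormone precursor of the lateral hypothalamus, measured -4.22, -4.62, -4.64 and -3.04, and its SD of 0.75 over 4 fetuses was 0.24 without replicate 4. GRP, the gastrin-releasing peptide, had an SD of 0.42, and UCN, urocortin, had 0.32. UCN was the gene with replicate 4 as its lowest, at -2.17.

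Over the 15 neuropeptide genes detected on at least 2 arrays, replicates 1 and 4 held the 2 highest values for 12. OXT, TAC3 and UCN were the exceptions. AGRP and GHRH were detected in replicates 1 and 4 alone, so the filter itself set their place among the 12. The same pair was the highest for 16% of the 757 named genes so detected, and the commonest pair among these genes was replicates 1 and 3, at 26.9%. Among the 12 peptides detected in all 4 fetuses the count was 9, against 16.3% of the 668 named genes so detected. For TAC1 the order rests on differences near those between repeated spots, and it changed with quantile normalization and with normexp, which gave 11 of 15. In intensity without any scaling the count was 10 of 15, and replicate 4 was the highest for 3 of the 15, against 7 with scaling. This ordering was noticed after the values had been seen, with all 6 pairs of fetuses tabulated in 33 lists, and it was not tested. PRLH, the prolactin-releasing peptide, was not on the list and had replicates 1 and 3 highest. A median SD of 0.69 for the list stood beside 0.24 for all named genes detected in all 4 fetuses. In such bulk tissue, fewer peptide cells and less RNA per cell cannot be told apart.

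**Figure D3:**
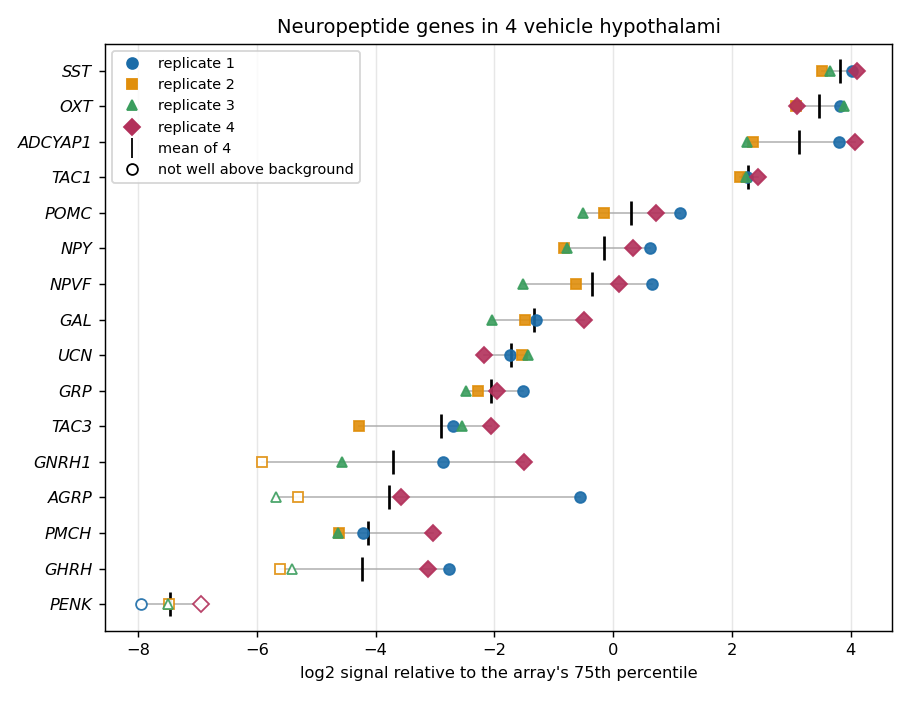
Signal of the 16 neuropeptide genes (rows, ordered by mean) in each vehicle fetus (symbols), on a log2 scale relative to the array's 75th percentile; open symbols mark values not well above background and black ticks the mean. Replicates 1 and 4 lie to the right of replicates 2 and 3 for most genes, and OXT, TAC3 and UCN are the detected genes without that order.

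The probes behind these values are 60 bases long, and those below are shown because they lie in coding sequence of the peptides that varied, or that mark the tissue. Capitals mark the codons of mature somatostatin from its second residue on, the codons of neurokinin B and, for POMC, the stop codon; the SST probe is shown up to its stop codon.
SST: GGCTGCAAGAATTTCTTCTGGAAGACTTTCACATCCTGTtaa
POMC: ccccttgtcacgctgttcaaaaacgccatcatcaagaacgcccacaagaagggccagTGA
AGRP: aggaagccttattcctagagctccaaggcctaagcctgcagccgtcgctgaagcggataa
GHRH: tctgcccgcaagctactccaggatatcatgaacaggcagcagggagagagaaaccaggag
GNRH1: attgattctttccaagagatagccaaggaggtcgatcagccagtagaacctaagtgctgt
NPVF: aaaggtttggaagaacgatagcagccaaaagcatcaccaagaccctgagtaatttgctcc
TAC3: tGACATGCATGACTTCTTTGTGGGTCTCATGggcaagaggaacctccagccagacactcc
GAL: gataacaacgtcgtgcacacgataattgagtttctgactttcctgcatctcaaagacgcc
Probes come in near-identical pairs for most of these genes. The 2 probes share 59 bases for SST, POMC, NPVF and GAL, 58 for GHRH and GNRH1 and 52 for AGRP, so their agreement is close to a repeat of 1 measurement. For POMC, GHRH and GNRH1 the probe shown is the dimmer of the pair, with means of 0.08, -4.31 and -3.89.

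Genes that process or receive these peptides were partly detected. CPE, the carboxypeptidase that trims peptide precursors, was at 3.46 ± 0.19, with replicates 1 and 3 the highest. PCSK1, the convertase that cleaves them, measured -2.75, -3.71, -3.44 and -2.38, with replicates 1 and 4 the highest. CRHBP, which binds corticotropin-releasing hormone, measured -0.01, -0.65, -0.96 and 0.74, in the same order of pairs. The somatostatin receptor genes SSTR1, SSTR2 and SSTR5 were detected in all 4 fetuses, with SDs of 0.18, 0.24 and 0.08. The orexin receptor genes HCRTR1 and HCRTR2 were likewise detected, as was NPY1R, a receptor for NPY, with an SD of 0.08. The probes for OXTR, the oxytocin receptor, and LEPR, the leptin receptor, were not well above background in any fetus.

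Among the 11 steroid and nuclear hormone receptor genes, 5 (45.5%, against 66.3% of all named genes) were detected in all 4 fetuses, 3 in some and 3 in none. ESR1, the oestrogen receptor alpha, measured 1.48, 0.32, 1.74 and -0.59 with its brighter probe, so that replicates 1 and 3 were high and replicate 4 low. Its other probe, which does not overlap it, gave -0.03, -1.43, -1.01 and -0.46, with replicates 1 and 4 the highest, so the order of fetuses for ESR1 depends on the probe. NR3C2, the mineralocorticoid receptor, measured 0.76, 1.15, 1.05 and 1.63. PGR, the progesterone receptor, had a mean of -3.98 ± 0.32. The probes of NR3C1, the glucocorticoid receptor, and THRA, a thyroid hormone receptor, were below the detection flag on every array. Of the steroid synthesis genes, CYP17A1, a 17-alpha-hydroxylase, was detected in all 4 fetuses with an SD of 0.10 by 1 probe, at a mean of -1.88, and in none by the other, at -7.34. CYP19A1, the aromatase, was detected in none.

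Of the 18 growth axis genes, 15 (83.3%, against 66.3% of all named genes) were detected in all 4 fetuses and 3 in some. IGF2, a fetal growth factor also made by choroid plexus and meninges, measured -1.61, -3.11, -1.76 and -0.54. IGFBP2, which binds IGFs, measured 2.50, 2.86, 2.29 and 3.54. For both, replicate 4 was the highest. Of the 13 appetite genes, 8 (61.5%) were detected in all 4 fetuses, a share near that of all named genes. Of the 9 prostaglandin genes, 8 (88.9%) were, and PTGER1, the EP1 receptor for prostaglandin E2, varied most, at -0.81, -2.85, -2.31 and -3.62, with replicate 1 apart from the rest.

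Cell type markers on the array were few. For astrocytes and tanycytes all 6 genes were detected in all 4 fetuses, among them the intermediate filament genes VIM, at 5.56 ± 0.15, and GFAP, at -0.26 ± 0.68. AQP4, the water channel of astrocyte endfeet, measured 3.77, 5.21, 5.10 and 4.93, so that replicate 1 alone was low. GFAP measured -0.22, -0.03, 0.40 and -1.20, with replicate 4 the lowest. The summed linear signal of the 6 genes was 60.02 in replicate 1 and 86.0 to 90.7 in the others. By gene, replicate 1 was the highest for 2 of the 6 and the lowest for 2. The sum thus rests mainly on its brightest genes, AQP4 among them, and not on the list as a whole. The oligodendrocyte list had 1 named gene, TF, and the list of markers of neighbouring forebrain had LEF1 alone, detected in replicate 1, so those 2 sources could not be judged.

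Of the 11 pituitary and pars tuberalis genes, 4 (36.4%, against 66.3% of all named genes) were detected in all 4 fetuses, 3 in some and 4 in none. CGA, the alpha subunit shared by the glycoprotein hormones, was detected in replicates 1 and 4 at -2.83 and -0.34, and gave -5.38 and -5.46 in the others. TSHB, the beta subunit of thyrotropin, was detected in the same fetuses at -5.00 and -2.82. Both are also made by the pars tuberalis. The 2 genes thus stood high in the fetuses in which most neuropeptide genes were high, and their part in that pattern was not tested. The probes of POU1F1, the factor that defines somatotrophs, lactotrophs and thyrotrophs, GH, FSHB and GNRHR were not well above background in any fetus. Other members of the list were detected. PRL, the prolactin gene, and TRHR, the receptor gene for TRH, were detected in all 4 fetuses, as were POMC and LHB. GHRHR, the receptor gene for GHRH, was detected in 2. LHB, the beta subunit of luteinizing hormone, had a bright probe at 4.86, 4.39, 4.91 and 3.85 and a dim one with a mean of -2.92, 7.43 log2 units apart, so its level is uncertain. The summed linear signal of the list ran from 17.3 to 31.7, mostly the LHB probe, and was highest in replicate 1 and lowest in replicate 4.

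TTR, transthyretin, the main product of the choroid plexus, was at -0.64 ± 0.21. It measured -0.57, -0.90, -0.69 and -0.41. HBB, adult beta globin, measured 1.66, 3.17, 1.84 and 3.53, so that replicates 2 and 4 were high. Of the 13 endothelial and mural genes, 6 (46.2%, against 66.3% of all named genes) were detected in all 4 fetuses, among them PECAM1 at -0.96 ± 0.21, and 5 in none. One of those 5, the VEGF receptor gene FLT1, had a dimmer probe detected on 1 array, so 4 had no detected probe. Of the 13 genes of muscle, milk and other tissues, 5 (38.5%) were detected in all 4 fetuses. Among them was the milk protein gene CSN2, at 1.63 ± 0.36 with 1 probe, whose other probe, at -7.27, was detected on no array, so its level is uncertain. The 3 myosin heavy chain genes MYH1, MYH2 and MYH7 were detected in none.

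Genes that nearly every cell uses could also lack a detected probe. ACTB, which encodes beta-actin, was measured by 1 probe and was at -7.62 to -6.87, not well above background on any array. For values of this kind the order of fetuses has no meaning, because the lowest scaled value on an array was -8.08 in replicate 1 and -7.01 in replicate 4. Of the 138 genes detected in 1 to 3 fetuses, the 10 with the highest SD were led by CGA (SD 2.44), AGRP (2.33) and TSHB (2.26). GNRH1 and GHRH were also among the 10. Such SDs rest partly on values without detection, and with normexp those of CGA, AGRP and TSHB were 1.64, 1.47 and 1.05. CGA, AGRP, TSHB and GHRH were detected in replicates 1 and 4 alone. The other 5 were SMAD5, a transducer of BMP signals detected in replicate 3, PIM1, a kinase detected in replicate 2, and NRP2, COPS7B and LPO, detected in replicate 1.

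The spread among fetuses was small for most genes. Among the 668 named genes detected in all 4 fetuses the median SD was 0.24, and 16 genes (2.4%) had an SD above 1. Printed 5 times per array, 30 detected probes gave a median SD of 0.09 between spots of 1 array and 0.24 between fetuses, and the second exceeded the first for 25 of the 30. With all detected probes in 5 groups of equal size by signal, the median SD was 0.25 in the dimmest group and 0.20 in the brightest. The spread was smaller without replicate 4. Then the median SD was 0.16 and 6 genes had an SD above 1, namely PAEP, INHBA, NPVF, TRPC4AP, PTGER1 and TNNC2. Base composition moved with the array as well. In replicate 4 the median deviation from the mean of a probe was 0.15 for probes of at most 35% GC and -0.10 for those above 50%.

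**Figure D4:**
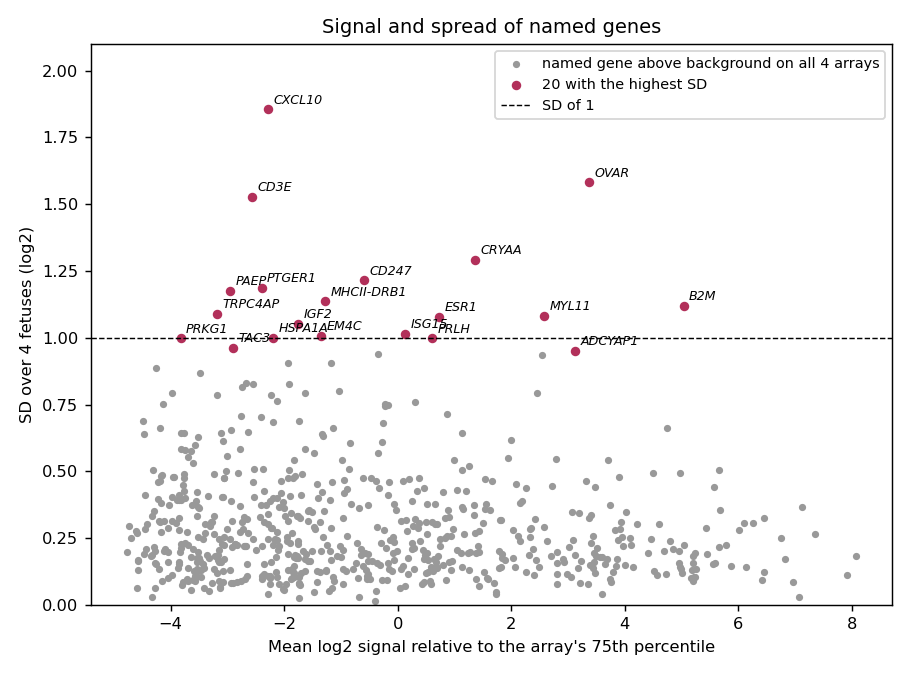
SD over the 4 vehicle fetuses (vertical axis, log2) against mean signal (horizontal axis, log2 relative to the 75th percentile) for the 668 named genes detected in all 4 fetuses, with the 20 highest SDs in red. CXCL10 has the highest SD, 1.86, and only 16 genes lie above the dashed line at 1.

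The 20 most variable genes had SDs from 0.95 to 1.86, with ADCYAP1 the last inside at 0.95 and NPVF the first outside at 0.94. Replicate 4 was the highest for 12 and the lowest for 8 of the 20, against 34.1% and 39.6% of the 757 named genes detected on at least 2 arrays. The 20 were chosen for their spread in these same values. A fetus far from the others thus tends to be at an extreme in them, and the counts cannot be read against those shares. Of the 12 genes of the interferon and antigen presentation list, all detected on at least 2 arrays, 9 (75%) were highest and 2 lowest in replicate 4, against 34.1% and 39.6% of all named genes so detected. CXCL10, an interferon-induced chemokine that attracts T cells, measured -3.81, -2.53, -3.17 and 0.39 and had the highest SD, 1.86, or 0.64 without replicate 4. OVAR, a sheep MHC class I gene, measured 2.84, 2.77, 2.17 and 5.70, and B2M, the light chain of MHC class I molecules, 4.86, 4.44, 4.19 and 6.67. In each case replicate 4 stood more than 1.5 log2 units above the next fetus.

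Replicate 4 was also the highest for MHCII-DRB1, an MHC class II gene, at -2.06, -2.07, -1.34 and 0.34, and for ISG15, an interferon-induced ubiquitin-like protein, at -0.97, 0.45, -0.35 and 1.37. Of 15 probes that the array's text names MHC class I, all were detected in all 4 fetuses and 14 were highest in replicate 4, against 37.7% of all detected probes, with a median excess of 2.59 over the next fetus. This count was also 14 in intensity without any scaling. Of 11 probes named MHC class II, 8 were detected in all 4 fetuses and 6 of those 8 were highest in replicate 4, with a median excess of 1.46. MHC genes are near-identical copies of one another, so such probes cannot be assigned to 1 gene. These probe sets were chosen after the values had been seen.

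Not all immune genes moved together. CD3E, part of the T cell receptor complex, measured -2.38, -3.93, -3.45 and -0.49, highest in replicate 4, and its second probe was also highest there. CD247, another part of that complex, measured -0.33, 0.38, -0.06 and -2.36, lowest in replicate 4. Of the 11 microglia and leukocyte genes, 7 (63.6%) were detected in all 4 fetuses, a share near that of all named genes. Of these, TYROBP, an adaptor of microglial receptors, had an SD of 0.18 and CTSS, the protease cathepsin S, 0.20. The summed linear signal of the list was 9.39 in replicate 4 and 6.21 to 7.17 in the others, and CD4 was detected in replicate 1 alone. The interferon-induced antiviral genes MX1 and MX2 had SDs of 0.54 and 0.38.

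Another 7 of the 20 were highest in replicates 1 and 3. That pair was also the commonest among the 668 named genes detected in all 4 fetuses, at 25.4%. CRYAA, the lens chaperone alpha-A crystallin, measured 2.31, 1.00, 2.45 and -0.31. MYL11, a myosin light chain of fast skeletal muscle, measured 3.78, 1.88, 3.20 and 1.48. PRLH measured 1.35, 0.18, 1.49 and -0.61, and ESR1, given above, had this order too. HSPA1A, an inducible heat shock protein, was also in this group, with an SD of 1.00. PTGER1 and TRPC4AP completed it. For CRYAA, MYL11, PRLH and ESR1 replicate 4 was the lowest and replicate 2 the next lowest. Replicates 4 and 2 also had the lowest shares of detected probes, and the part of this in the order was not tested.

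The remaining variable genes followed other orders. PAEP, the milk protein beta-lactoglobulin of sheep, measured -3.76, -1.97, -4.17 and -1.93. PRKG1, the cGMP-dependent protein kinase, was highest in replicate 4 at -2.36. TAC3, ADCYAP1 and IGF2 are given above. EM4C, an array name with no known role here, was highest in replicate 4 at 0.13.

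**Figure D5:**
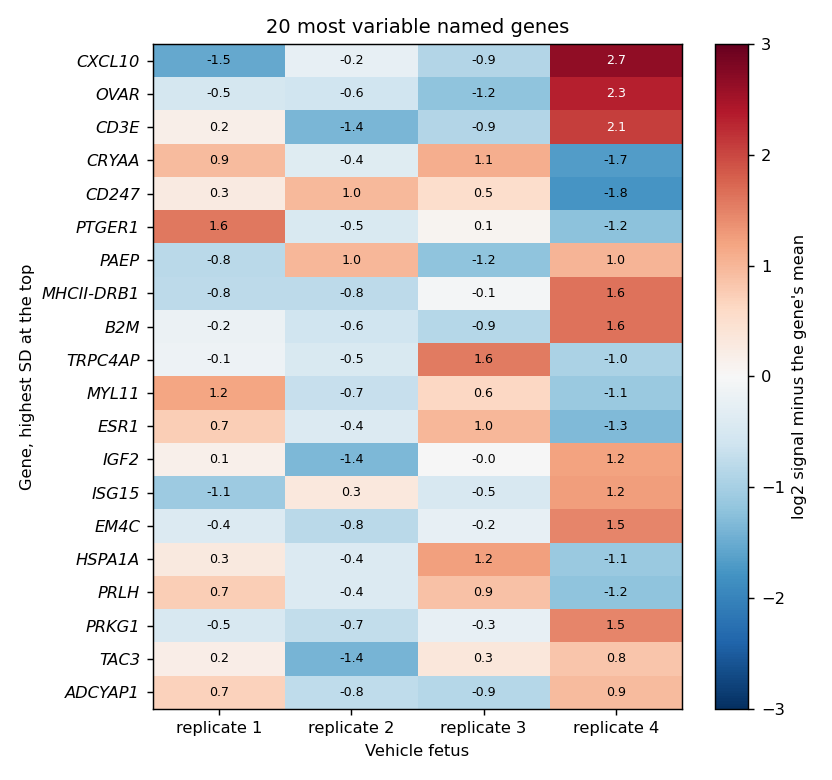
Deviation of each vehicle fetus (columns) from the mean of the gene (rows, highest SD at the top) for the 20 most variable named genes, in log2 units from blue (lower) to red (higher), with the value in each cell. Replicate 4 holds the highest value for 12 genes and the lowest for 8, in genes chosen for their spread over these same fetuses.

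The 4 estradiol sulfate arrays, which took no part in choosing these genes, gave a further measure of spread, though not of the vehicle state. There the SD was 2.00 for CXCL10, 1.29 for OVAR, 0.93 for CD3E and 0.87 for B2M. It was 0.59 for CRYAA, 0.42 for MYL11, 0.41 for ESR1, 0.28 for PRLH and 0.08 for TRPC4AP. Of the 20 genes, 19 had an SD above the median of 0.22 that named genes detected on all 8 arrays had in those fetuses.

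The steadiest genes were spread over the range of signal. The 10 with the lowest SD ran from 0.01 for CCND3, a cyclin of the G1 phase, which measured -0.40, -0.38, -0.41 and -0.41, to 0.05 for SFTPC. Others among them were TPT1, SRP14 of the signal recognition particle at 3.60 ± 0.04 and GLUD1, the glutamate dehydrogenase, at 1.73 ± 0.04. A GLUD1 probe that shares no bases with this one was detected on all 4 arrays with an SD of 0.47, so the steadiness of GLUD1 depends on the probe. SFTPC, lung surfactant protein C, was at 1.73 with 1 probe, and its other probe was dimmer.

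Different probes for 1 gene often differed in signal. Among 317 comparisons of a gene's brightest probe with another of its probes, both detected in all 4 fetuses, 147 shared 50 bases or more and differed by a median of 0.09. The 114 that shared fewer than 10 bases differed by a median of 0.91, and by more than 2 in 31. PRNP, the prion protein gene, had the widest gap, 4.51 against -4.36. Gaps above 2 were also found for genes given above, here counting dimmer probes not detected on all 4 arrays too. Among them were ASIP, whose other probe was at 3.33, FTH1, at 5.33, GLUD1, at -2.40, IGF2, at -5.46, OVAR, at -1.85, and PRKG1, at -7.49. The levels of these genes thus hold for 1 probe. The fetus with the highest value was the same for 72.8% of the first kind and for 50.9% of the second. For HBB and CD3E, whose probes do not overlap, both probes gave the same highest fetus.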

How the data were processed

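Hypothalamic RNA of each fetus was labelled with Cy3 and hybridised to a 1-colour Agilent sheep array; per the labels, RNA had been stored for 7 years. Per the file headers, intensity was extracted with Agilent Feature Extraction 10.1.1.1, and the processed intensity deposited by the authors is background-subtracted and detrended within an array, not normalized between arrays. The deposited table of log2 values was compared with it and matches log2 processed intensity to 0.001 in at least 99.7% of probes once each array is shifted by 1 constant; its column medians ran from 0.06 to 0.07, the rule behind the constant is unknown, and it served as an alternative. The detection flags are those in the deposited files.

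Spots of a probe were averaged without controls and outliers, and log2 values centred on the array's 75th percentile (Python 3.11.15, limma 3.58.1 for normexp with offset 50). Probes whose spots were all flagged (0 to 10 per array) had no value there. Each gene took its probe with the highest mean. Named genes were the neuropeptides, the 20 brightest, the 20 most and 10 least variable among those detected on all 4 arrays, the 10 most variable of those on 1 to 3, and up to 4 per list; other names were chosen after values were seen. Names came from the design, updated through a RefSeq table of ARS-UI_Ramb_v3.0, used for names alone; accessions matched 693 probes, symbols 502, gene numbers 125, synonyms 26 and descriptions 5, while 55 kept the design's name and 250 were read from the design's text by hand, after the data were seen. Probes with only a LOC number were treated as unnamed, also decided afterwards.

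A few named genes are not reported here. Members and lists were chosen with earlier results of these data known. The number of arrays, 4, limits the precision. The calculations were tested on simulated data whose variable probes had a wider spread than the genes here. How they perform near an SD of 1 was therefore not tested. The vehicle arrays lay together in 1 column of the slide, which the fetuses share.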

Additional observations from a re-analysis of the deposited data

Results flagged for a closer look

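For the genes named by the rule, the highest or lowest of the 4 fetuses was set against the others by Dixon's criterion, the gap to the nearest fetus divided by the whole range, at its 95% critical value. Of 141 genes examined, 13 (9.22%) passed it. Chance flags about 1 in 20 groups, but some of these genes were chosen for their brightness or spread in the same 4 values, so the share cannot be read against that rate. Replicate 4 was the fetus farthest from the others for 10 of the 13, above them for 8 and below for 2. The genes below include CRHR1, which was not detected in replicate 4 and is set aside further on.

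The genes with replicate 4 above the others were the ribosomal protein genes RPS12, at 7.67, RPS20, at 6.94, and RPS27A, at 6.72, the growth regulator MYC, at 0.50, the vessel growth factor VEGFA, at -0.82, the immunoproteasome subunit PSMB8, at -1.06, the redox protein TXN, at 4.40, and the matrix proteoglycan DCN, at 2.04. For PSMB8 the other 3 fetuses lay between -2.67 and -2.56, and for MYC between -0.65 and -0.62. The chaperone HSP90AA1 was below the others there, at 2.70. Replicate 2 stood below them for TPT1, at 7.02, where all 4 fetuses lay within 0.06.

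For the last 3 of the 13 the gap rests on values without detection, which have no order, so that no fetus can be said to stand apart. They were CRHR1, a receptor for corticotropin-releasing hormone, at -6.62 in replicate 4 without detection, and CD4, a T cell and macrophage receptor, at -4.57, and GCG, the glucagon precursor, at -3.70, both detected in replicate 1 alone.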

How the results depend on the processing

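Among the summary values, the count of named genes with an SD above 1, which was 16, moved by over 1.5 times. It ranged from 6 to 23 with 1 fetus left out, the lowest without replicate 4, and was 9 with normexp, 27 for genes detected on at least 2 arrays and 39 with no filter; in the last pair more genes, and undetected ones, enter, and for normexp the cause was not tested. The counts of detected probes and genes and the median SD of named genes stayed within 1.5 times under every alternative run; for the 20 brightest genes the median SD, 0.22, was 0.13 with quantile normalization. Of the 20 most variable genes, 9 stayed among the top 20 without replicate 4 and 16 to 20 under the other alternatives. Of the SDs of 54 named genes, 25 moved by over 1.5 times without replicate 4 and 17 with quantile normalization. With median scaling and the authors' deposited log2 values, levels of named genes were higher by a median of 2.60 and 2.67 and with the percentile taken over probes well above background lower by 0.99, since all 3 are centred elsewhere. A GC adjustment, chosen after seeing the data, left 12 of 15 neuropeptide genes with replicates 1 and 4 highest. No paired analysis was possible because the values come from 1 group and no test. For dim probes, signal over background limits what can be said, and values without detection have no order.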

Other observations

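Of the 16 glutamate signalling genes, 11 (68.8%) were detected in all 4 fetuses, 3 in some and 2 in none, with a median SD of 0.25, both values close to the 66.3% and 0.24 of all named genes. The AMPA receptor subunit genes GRIA1, GRIA2 and GRIA3 had means of 0.52, 0.94 and 0.19, and GRIA1 measured 0.15, 0.32, 0.57 and 1.02 in replicates 1 to 4. Of the 11 genes of hypoxia and glycolysis, 9 (81.8%) were detected in all 4 fetuses. Among them were SLC2A3, the neuronal glucose transporter, at 3.09 ± 0.24 (SD, n = 4), and GAPDH, a glycolytic enzyme. GAPDH was at 5.23 ± 0.10 with its brightest probe, and its others had means of 3.95, 3.92, -2.16 and -2.16. HIF1A, a hypoxia-responsive transcription factor, was detected in replicates 1 to 3 and measured -3.56, -4.58, -3.76 and -5.20.

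Of the 8 immediate early genes, which neurons induce on activation, 7 (87.5%, against 66.3% of all named genes) were detected in all 4 fetuses. FOS was at -0.36 ± 0.29 with its brightest probe, but its 3 other probes had means from -5.81 to -5.51 and were detected on 1 array each. EGR1 was at 0.39 ± 0.24, and its other probes, at -5.40 and -7.34, were detected on 1 array and on none, so both levels are uncertain. Of the 11 clock genes, 8 (72.7%) were detected in all 4 fetuses, near the share of all named genes. PER2, a repressor of the circadian loop, measured 1.15, 1.07, 0.51 and 0.58 with its brighter probe, whose partner had a mean of -4.95, and the probe of CLOCK, an activator of the loop, was not well above background in any fetus. Of the 11 cell cycle genes, 10 (90.9%) were detected in all 4 fetuses. The mitotic genes CCNB1 and CDK1 were highest in replicate 2, CCNB1 at -1.78, -1.10, -1.90 and -1.56 and CDK1 at -4.47, -3.54, -4.61 and -4.04.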
